A study of Mus musculus with 6 samples.

Results

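Tight junctions, desmosomes and keratins make up much of the contact and support machinery of epithelial cells, and 39 genes of this kind were followed here in pRb-expressing and pRb-deficient mouse osteoblasts. The genes were listed by their function: 10 desmosome genes (3 cadherins and 7 plaque and associated proteins), 10 claudins, 3 tetraspan MARVEL proteins, 4 junctional adhesion molecules, 4 tight junction plaque proteins, 3 polarity proteins, 4 keratins and Epcam. A gene was measured by the probe sets, groups of short probes on the array, that carry its symbol and no other, and where it had several the brightest over all arrays was used. All 39 were found among 18193 genes measured in this way. Of these, 37 were tested, and Cldn3 and Marveld2 were not, because their brightest probe set was at or below a signal of 32 on every array.

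RNA from 3 pRb-expressing and 3 pRb-deficient cultures was hybridized to 1 Mouse Genome 430 2.0 array each. Both groups are MC3T3 cells, which here means calvarial (skull bone) osteoblasts of embryonic day 18.5 mice that were immortalized by the 3T3 protocol of passage every 3 days and grown in α-MEM with fetal bovine serum. The pRb-deficient cells, labelled Rb Knockout, came from F2 mice of a cross between floxed flox19-RB1 mice, kept on C57BL/6, and Col1a1-Cre transgenic mice. The pRb-expressing cells, labelled Wild type, came from control littermates. Cre was driven by the promoter of the collagen gene Col1a1, so deletion depended on a promoter of the osteoblast lineage, and each genotype was an immortalized line. The labels call the cultures biological replicates, but nothing says that they came from separate lines or animals. The p-values therefore measure only the spread between these samples, which may be technical, and the line of origin and pRb status cannot be told apart.

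Desmosomes are button-like contacts in which cadherins (desmogleins and desmocollins) bind the neighboring cell, and plaque proteins such as desmoplakin, plakoglobin and the plakophilins tie them to keratin filaments inside. Tight junctions seal the space between cells with strands of claudins, occludin and its MARVEL relatives, which a plaque of ZO and cingulin proteins links to actin, and polarity proteins set where along the membrane the junction forms. Osteoblasts are of mesenchymal origin and hold each other mainly through adherens junctions and gap junctions, and keratins are typical of epithelia.

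Rb1 itself was measured at 1123.7, 1118.6 and 1105.9 in the pRb-expressing cultures and at 143.1, 127.1 and 123.5 in the pRb-deficient ones, a log2 fold change of -3.09 (SE 0.10, adjusted p = 4.94e-06). The position of these probes with respect to the floxed exon is not known here, so the value describes Rb1 RNA and is no test of the deletion, and the other Rb1 probe set was at or below 32 on all arrays. Of 8 osteoblast markers, 7 were lower in pRb-deficient cultures (beside 23.4% of all genes tested) and 1, Phex, was higher (beside 18.5%). Col1a1, Col1a2 and Sparc fell but stayed at 8615.5 or more on every array, whereas the bone matrix genes Ibsp and Dmp1 were at or below 11.9 on the 3 pRb-deficient arrays. Genes of the sex chromosomes separated the groups as well. Xist, which silences 1 X chromosome in female cells, averaged 10965 in the pRb-deficient group and 168 in the other. The Y-linked Eif2s3y, Kdm5d and Uty were at or below 25.0 on every pRb-deficient array and at 437.7 or more on every pRb-expressing one. This is the pattern of male pRb-expressing and female pRb-deficient cells, so sex and pRb status cannot be told apart either. In bulk RNA such as this, fewer cells of a type and less RNA per cell cannot be told apart.

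Among the 37 tested genes, 11 were higher and 4 were lower in pRb-deficient cultures at an adjusted p under 0.05, and 22 did not pass. The higher genes were Perp, F11r, Igsf5, Pkp1, Cgnl1, Jup, Cldn1, Pard6b, Dsp, Cldn12 and Pkp2, and the lower ones were Krt8, Cldn16, Jam3 and Tjp1. The 11 higher genes make up 29.7% of the members tested, beside 18.5% of all 16308 genes tested. The 4 lower genes make up 10.8%, beside 23.4% of all genes. In either direction 40.5% of the members were called, beside 41.9% of all genes, a share close to that of genes at large. Their median log2 fold change was -0.02 and that of all genes tested -0.09. The 3 pRb-deficient arrays did not overlap the 3 pRb-expressing ones for 20 members (54.1%, beside 52.4% of all genes), lying above for 13 and below for 7. Low signal was common, as 13 of the 39 genes stayed at or below 100 on every array. MAS5 signals of different probe sets are not on 1 scale, so levels are compared between cultures and not between genes.

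**Figure D1:**
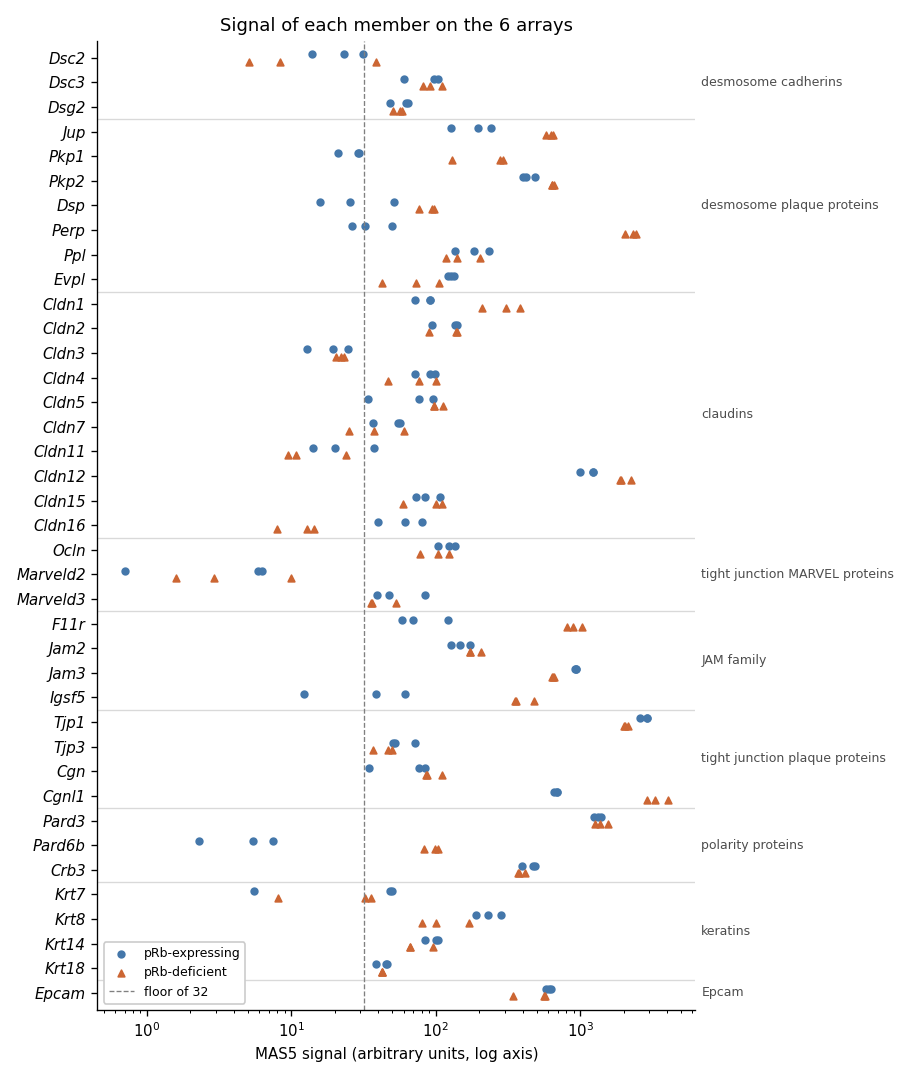
MAS5 signal (log axis, arbitrary units) of the brightest probe set of each of the 39 genes on the 3 pRb-expressing (circles) and 3 pRb-deficient (triangles) arrays, grouped by role; the dashed line is the floor of 32. Perp lay between 26.4 and 49.9 in pRb-expressing cultures and between 2032.1 and 2430.5 in pRb-deficient ones, while the points of the desmosome cadherins overlap.

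**Figure D2:**
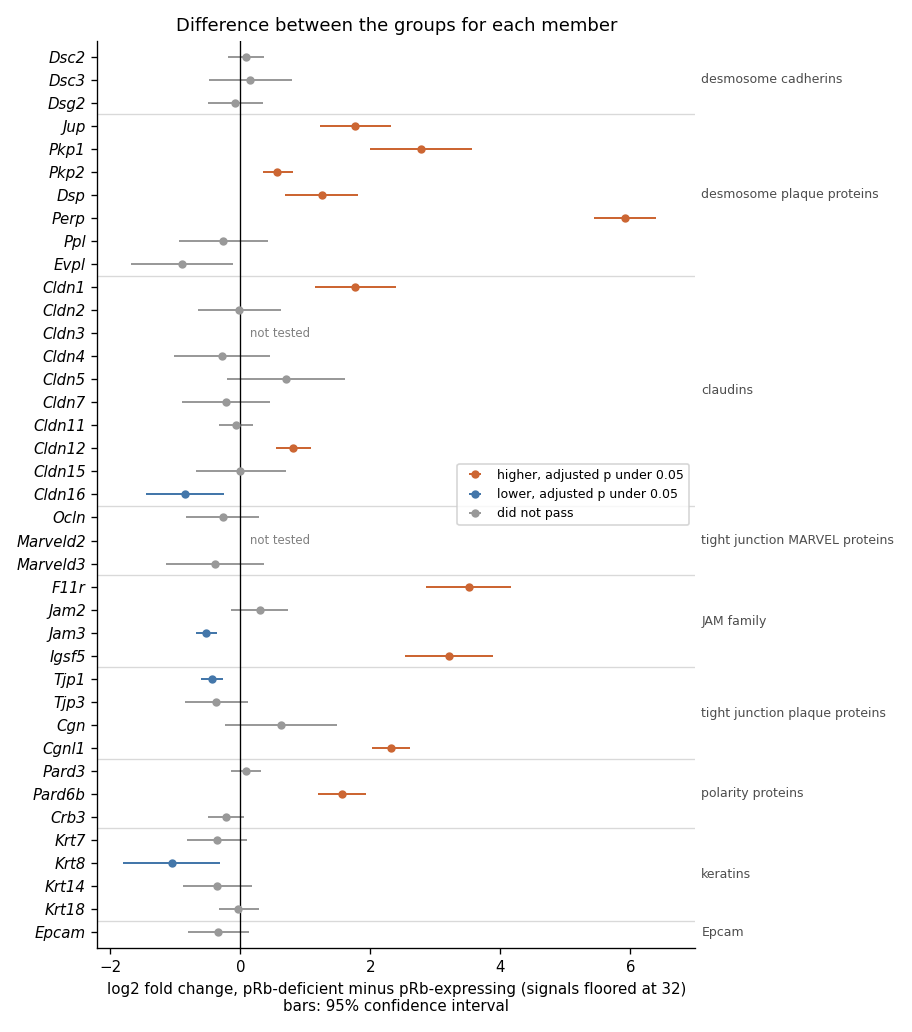
Log2 fold change (pRb-deficient minus pRb-expressing, signals floored at 32) of each gene with its 95% confidence interval; orange and blue points passed an adjusted p under 0.05 as higher and lower, grey points did not. Of the desmosome plaque and associated genes 5 of 7 lie to the right of 0 and passed, whereas 3 of 4 keratins, both MARVEL genes tested and all 3 cadherins did not pass. Of all genes tested, 41.9% passed in either direction.

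Promoter sequences are shown for the 4 called genes with the highest mean signal among those with an entry in the table used here, a set that holds a ZO protein that fell and a cingulin, a claudin and a junctional adhesion molecule that rose. Each sequence is a RefSeq window on build GRCm38.p6 of 300 bases, 250 before and 50 after the transcription start, read 5′ to 3′ on the gene's strand. Capitals mark matches, on either strand, to 1 of 4 short motifs. These are an E2F core (TTTNNCGC), where N is any base, a GRHL core (AACNGGTT), an AP-1 core (TGANTCA) and the E-box CAGGTG, to which SNAI and ZEB factors bind. For Cldn12, the first of 3 annotated starts is shown.
Tjp1, chr7:65371195-65371494, minus strand: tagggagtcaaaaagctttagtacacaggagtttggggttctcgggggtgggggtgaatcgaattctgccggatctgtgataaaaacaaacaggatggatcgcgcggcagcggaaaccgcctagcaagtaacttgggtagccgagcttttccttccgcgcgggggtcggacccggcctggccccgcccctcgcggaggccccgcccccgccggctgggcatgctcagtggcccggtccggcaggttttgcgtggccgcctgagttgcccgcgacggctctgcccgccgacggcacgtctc
Cgnl1, chr9:71771553-71771852, minus strand: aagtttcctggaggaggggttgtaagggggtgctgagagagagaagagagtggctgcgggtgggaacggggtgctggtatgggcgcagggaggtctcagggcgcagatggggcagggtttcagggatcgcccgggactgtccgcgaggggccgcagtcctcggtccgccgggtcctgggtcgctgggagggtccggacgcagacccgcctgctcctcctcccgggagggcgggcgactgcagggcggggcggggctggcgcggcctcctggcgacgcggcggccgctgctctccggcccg
Cldn12, chr5:5514927-5515226, minus strand: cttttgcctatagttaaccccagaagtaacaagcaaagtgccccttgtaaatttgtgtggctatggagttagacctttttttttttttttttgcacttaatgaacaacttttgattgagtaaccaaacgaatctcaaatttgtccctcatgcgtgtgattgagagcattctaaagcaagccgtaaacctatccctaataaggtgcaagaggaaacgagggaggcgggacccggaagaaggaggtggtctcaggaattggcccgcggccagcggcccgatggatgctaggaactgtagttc
F11r, chr1:171437311-171437610, plus strand: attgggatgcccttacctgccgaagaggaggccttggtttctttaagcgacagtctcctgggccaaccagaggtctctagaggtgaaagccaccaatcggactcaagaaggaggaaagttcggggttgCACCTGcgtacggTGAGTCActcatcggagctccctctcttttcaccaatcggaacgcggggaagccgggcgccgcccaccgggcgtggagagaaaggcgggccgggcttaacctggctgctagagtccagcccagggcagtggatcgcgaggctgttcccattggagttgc

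In the F11r window the E-box, which reads CACCTG on this strand, starts at position -122 from the transcription start and the AP-1 core TGAGTCA at -109, without overlap. The other 3 windows hold none of the 4 motifs. Over all 32851 windows in the table, 5.17% held the E2F core, 2.09% the GRHL core, 7.81% the AP-1 core and 20.2% the E-box. Windows were found for 27 of the 39 genes and for 10 of the 15 called ones. Perp, Pkp1, Pkp2, Igsf5 and Jam3 had no entry. None of the 10 held the E2F or the GRHL core, 1 (F11r) held the AP-1 core, and 4 (F11r, Dsp, Pard6b and Krt8) held the E-box. Of all 27 genes, 1 held the E2F core in any window, 2 the GRHL core, 3 the AP-1 core and 15 the E-box, where 5.93%, 2.35%, 8.97% and 22.6% of the 27025 genes with a window did. A match is a run of letters and not a measured binding site, and a missing match says only that these letters are not in this window.

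None of the 3 desmosome cadherins, which reach across to the neighboring cell, passed, where 41.9% of all genes were called in either direction. Of 7 genes for the plaque and its associated proteins, 5 were higher (beside 18.5% of all genes) and none was lower (beside 23.4%). The median log2 fold change over the 7 was 1.25, beside -0.09 over all genes tested. Members and lists were chosen with earlier results of these data known, so these counts are no independent support. The cadherins and the plaque genes were not tested against each other. Perp, a tetraspan membrane protein of desmosomes and a target of p53, showed the largest log2 fold change of all members. Its signals were 32.5, 26.4 and 49.9 in pRb-expressing cultures and 2333.8, 2430.5 and 2032.1 in pRb-deficient ones. Every pRb-deficient array was far above every pRb-expressing one, and the latter lay near the floor. The log2 fold change was 5.92 (95% confidence interval 5.44 to 6.40, adjusted p = 5.06e-06), or at least 60.6-fold. Perp has a single probe set on the array, so no further set bears on it.

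Pkp1, plakophilin 1, an armadillo protein of the plaque best known from the outer layers of skin, was at 29.2, 21.0 and 29.0 in pRb-expressing and at 130.3, 278.3 and 293.6 in pRb-deficient cultures. It was below the floor on all arrays of the first group and above on all of the second, although 1 pRb-deficient array held less than the others. It was at least 6.87-fold higher (log2 fold change 2.78, SE 0.33, adjusted p = 0.000758). With all pRb-expressing values set to 32, its measured spread came from the pRb-deficient arrays alone. Jup encodes plakoglobin, which serves both desmosomes and adherens junctions and is a close relative of β-catenin. Its signals were 196.6, 240.4 and 127.1, against 648.6, 584.3 and 632.1 in pRb-deficient cultures. The groups did not overlap, and Jup was 3.42-fold higher (log2 fold change 1.77, SE 0.23, adjusted p = 0.00113).

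Dsp, desmoplakin, the linker from plaque to keratin, was dim in both groups. It stood at 25.4, 51.4 and 15.8 in pRb-expressing cultures and at 94.1, 97.8 and 76.7 in pRb-deficient ones, without overlap. The difference was at least 2.38-fold (log2 fold change 1.25, SE 0.24, adjusted p = 0.00623). Another Dsp probe set gave 1.26 (adjusted p = 0.00171), and the last was at or below 32 on all arrays. Pkp2, plakophilin 2, which is broadly made in simple epithelia and heart, was bright in both groups, at 483.0, 404.0 and 418.7 and at 635.7, 642.3 and 659.7. This small rise of 1.49-fold (log2 fold change 0.57, SE 0.10, adjusted p = 0.00396) was seen in another bright probe set (0.42, adjusted p = 0.0208) but not in a dim one (0.00, adjusted p = 0.998), and averaged over its probe sets Pkp2 did not pass (0.25, adjusted p = 0.123).

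Ppl and Evpl encode periplakin and envoplakin, linker proteins that pair with each other at the desmosome and in the cornified envelope of skin. Evpl was at 134.2, 127.3 and 122.4 in pRb-expressing cultures and at 42.6, 104.9 and 72.6 in pRb-deficient ones. All pRb-deficient arrays lay below the others, but they spread widely and the log2 fold change of -0.90 did not pass (adjusted p = 0.0797). It passed as lower in 4 alternatives: a floor of 100 (-0.33, adjusted p = 0.00585), a pseudocount of 32 (-0.65, 0.0471), a minimum mean signal of 100 (-0.90, 0.0428) and without the second pRb-deficient array (-1.20, 0.0357). Ppl overlapped between groups (116.9 to 232.1 over all arrays, log2 fold change -0.27, adjusted p = 0.531). Of the cadherins, Dsc2 did not exceed 38.7 on any array, Dsg2 lay between 48.2 and 64.3 and Dsc3 between 60.1 and 111.0. Their log2 fold changes were 0.09 (95% confidence interval -0.19 to 0.37), -0.08 (-0.50 to 0.35) and 0.15 (-0.49 to 0.79). For Dsc2, at or below 32 on 5 of 6 arrays, the floor compresses any difference, while Dsc3 and Dsg2 were above it on every array. A change in these cadherins within those intervals was not detectable on the brightest probe sets. The other tested Dsg2 probe sets ran from -0.66 to 0.11 and none passed. The one at -0.66 had a 95% confidence interval of -1.35 to 0.03 (adjusted p = 0.129), which reaches beyond that of the brightest.

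Of 9 claudins tested, 2 were higher (beside 18.5% of all genes), 1 was lower (beside 23.4%) and 6 did not pass. Claudin 12, a claudin without the usual PDZ-binding tail, was well above the floor in both groups, at 1220.2, 997.7 and 1225.8 in pRb-expressing cultures and 1884.4, 2238.8 and 1907.3 in pRb-deficient ones. Its groups were well apart, and Cldn12 was 1.75-fold higher (log2 fold change 0.81, SE 0.11, adjusted p = 0.00147). A second probe set gave nearly the same value (0.77, adjusted p = 0.000278). Cldn1, the barrier-forming claudin of epidermis, was at 91.6, 72.2 and 91.9 against 207.6, 383.7 and 305.0, again without overlap. It was 3.42-fold higher (log2 fold change 1.77, SE 0.26, adjusted p = 0.00195). A second Cldn1 probe set rose more, by 3.20 on the log2 scale (adjusted p = 0.000404), while one near the floor was at -0.26 (adjusted p = 0.278) and the last was at or below 32 throughout.

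Cldn16, paracellin 1, known from magnesium reabsorption in the kidney, went the other way. It was at 60.8, 80.7 and 39.9 in pRb-expressing cultures and at 12.8, 14.3 and 8.0, below the floor, in pRb-deficient ones. The drop was at least 1.81-fold (log2 fold change -0.86, SE 0.25, adjusted p = 0.0364), and it did not pass when any array other than the third pRb-expressing one was left out. With all pRb-deficient values set to 32, the measured spread came from the pRb-expressing arrays alone. Cldn1 and Cldn16 are close together on chromosome 16, with starts in the windows chr16:26371790-26372089 and chr16:26462885-26463184, and had opposite signs of change. Among the other claudins, Cldn5, which is typical of endothelium, was at 97.4, 97.6 and 112.8 in pRb-deficient cultures, each above all pRb-expressing values (95.0, 34.2 and 76.8), but did not pass (log2 fold change 0.70, adjusted p = 0.213). Cldn2, Cldn4, Cldn7, Cldn11 and Cldn15 overlapped between groups, with log2 fold changes from -0.29 to 0.00 and no signal above 140.3. Cldn3, at or below 24.7 on its brightest probe set, had no measured level.

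Neither tetraspan MARVEL protein tested passed, where 41.9% of all genes did. Ocln, occludin, overlapped between the groups (77.3 to 136.9, log2 fold change -0.27, adjusted p = 0.44), as did Marveld3 (35.4 to 83.7, -0.39, adjusted p = 0.401). Marveld2, tricellulin, the protein of corners where 3 cells meet, was at or below 9.9 on every array.

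Junctional adhesion molecules are immunoglobulin-type proteins at the upper edge of the contact, and their members moved apart from each other. F11r, which encodes JAM-A, rose from 69.6, 58.8 and 121.6 to 1031.3, 896.4 and 805.4. All pRb-deficient arrays were several times above all pRb-expressing ones, at 11.4-fold (log2 fold change 3.52, SE 0.28, adjusted p = 0.000126). A dimmer F11r probe set of the _x_at class, whose probes may match other transcripts, rose by 0.47 and did not pass (adjusted p = 0.261). Igsf5, or JAM4, was at 38.6, 61.5 and 12.3 in pRb-expressing and at 351.5, 480.1 and 357.5 in pRb-deficient cultures. With no overlap, it was at least 9.26-fold higher (log2 fold change 3.21, SE 0.29, adjusted p = 0.000217).

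Jam3, or JAM-C, was instead lower. Its signals were tight in both groups, at 934.4, 918.7 and 940.9 against 640.3, 646.3 and 655.1, and it fell 1.44-fold (log2 fold change -0.53, SE 0.07, adjusted p = 0.00109). A second, dim Jam3 probe set gave 0.24 (adjusted p = 0.488), and with the mean of both Jam3 no longer passed (-0.14, adjusted p = 0.412). Jam2, or JAM-B, depended on the probe set. On the brightest it was at 148.1, 128.1 and 173.0 and at 172.1, 172.8 and 204.1, which overlap, and did not pass (0.30, adjusted p = 0.274). Of the other 4 Jam2 probe sets, 3 rose, by 1.42, 1.74 and 1.38 on the log2 scale (adjusted p = 0.0044, 0.00313 and 0.000307), and the dimmest did not pass (0.09). The mean of all its probe sets was 0.99 higher and passed (adjusted p = 0.00159).

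**Figure D3:**
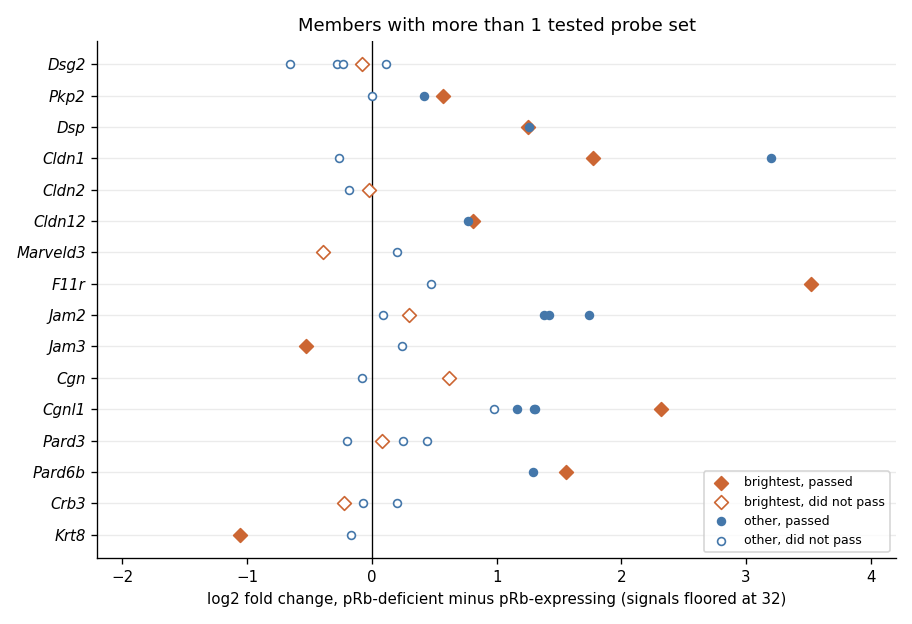
Log2 fold change (pRb-deficient minus pRb-expressing, signals floored at 32) of every tested probe set of the members that have more than 1; diamonds are the brightest probe set used in the counts, circles the others, and filled symbols passed an adjusted p under 0.05. The probe sets of Cldn12, Dsp and Pard6b lie together, whereas those of several genes, such as Cldn1, Cgnl1, F11r, Jam2 and Jam3, spread. For Dsp and Pard6b most pRb-expressing signals were set to the floor of 32, which hides differences between probe sets.

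In the tight junction plaque, cingulin-like 1 stood out and ZO-1 fell slightly. Cgnl1, also called paracingulin, which is found at both tight and adherens junctions, was at 654.4, 687.4 and 696.3 in pRb-expressing and at 3274.9, 4072.8 and 2915.2 in pRb-deficient cultures. The groups were wide apart, at 4.99-fold (log2 fold change 2.32, SE 0.12, adjusted p = 2.66e-05). Of its 5 probe sets 4 passed, all upward, but those besides the brightest rose less, by 1.30, 1.16 and 1.31. The last of these was below the floor on all pRb-expressing arrays. The fifth gave 0.98 (adjusted p = 0.0607). The mean of all Cgnl1 probe sets was 1.41 higher (adjusted p = 0.00142). Tjp1, or ZO-1, which also sits at the adherens junctions of cells without tight junctions, was bright throughout, at 2916.5, 2598.9 and 2883.5 against 2006.8, 2029.9 and 2156.3. It did not overlap and was 1.36-fold lower (log2 fold change -0.44, SE 0.07, adjusted p = 0.00313). Tjp3, or ZO-3, and Cgn, cingulin, each separated without passing. Tjp3 was at 50.5, 51.9 and 71.5 against 46.4, 50.1 and 37.0 (log2 fold change -0.37, adjusted p = 0.214), and Cgn at 77.0, 84.4 and 34.4 against 86.2, 109.6 and 86.6 (0.62, adjusted p = 0.241).

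Among polarity proteins, Pard6b, a scaffold that binds atypical protein kinase C, was at 5.4, 2.3 and 7.5 in pRb-expressing cultures and at 82.3, 99.5 and 103.0 in pRb-deficient ones. It went from below the floor on all arrays to above it on all arrays, at least 2.95-fold (log2 fold change 1.56, SE 0.16, adjusted p = 0.000362), and a second probe set gave 1.29 (adjusted p = 0.00234). All pRb-expressing values of Pard6b were set to 32, so its measured spread came from the pRb-deficient arrays alone. With a floor of 100 in place of 32 the difference was 0.01 (adjusted p = 0.828), since its signals hardly exceed 100. Pard3, the partner scaffold, was bright and overlapped (1244.4 to 1566.3, log2 fold change 0.08, 95% confidence interval -0.15 to 0.31). Crb3, the crumbs protein of most epithelia, overlapped as well (369.3 to 485.4, log2 fold change -0.22, adjusted p = 0.198).

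None of the 4 keratins was higher and 1 was lower, beside 18.5% and 23.4% of all genes tested. Krt8, the type II keratin of simple epithelia, was at 191.3, 281.9 and 230.0 in pRb-expressing and at 80.1, 100.7 and 171.1 in pRb-deficient cultures. The groups did not overlap, but relative to their signal the pRb-deficient arrays spread more widely than the pRb-expressing ones. Krt8 was 2.08-fold lower (log2 fold change -1.06, SE 0.31, adjusted p = 0.0369). The call was lost when any array other than the third pRb-deficient one was left out, and when its probe sets were averaged (-0.41, adjusted p = 0.0787). Krt18, the type I partner with which Krt8 forms filaments, lay between 38.8 and 45.6 on all arrays (log2 fold change -0.03, 95% confidence interval -0.33 to 0.28). Krt7 (5.5 to 50.0, -0.36) and Krt14, a keratin of basal epidermis (65.9 to 103.8, -0.36), overlapped and did not pass (adjusted p = 0.205 and 0.28).

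Epcam, the adhesion molecule by which epithelial cells are often recognised, was read differently by its 2 probe sets. The brighter, of the _x_at class, gave 580.2, 626.4 and 607.0 against 569.4, 345.4 and 558.4, lower on each pRb-deficient array but not past the threshold (log2 fold change -0.34, adjusted p = 0.247). The other was at or below 13.1 on all arrays.

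The related genes outside the 39 were looked at by the same rule, beside 18.5% higher and 23.4% lower among all genes tested. Of 4 other desmosome genes tested none was higher and 1 was lower, Cdsn, which encodes corneodesmosin of cornified skin (log2 fold change -2.58, adjusted p = 0.000477). Of 9 other claudins 1 was higher, Cldn6 (0.83, adjusted p = 0.00582), and none was lower. Of 20 other tight junction and polarity genes 8 were higher and 2 lower, led by Ildr2, an angulin read by a probe set of the _x_at class (2.69, adjusted p = 8.73e-06), Prkci, an atypical protein kinase C that binds Par6 proteins (0.75, adjusted p = 0.000152), and Amotl2, an angiomotin (-1.40, adjusted p = 0.000167). Of 12 other keratins 3 were higher and 1 lower, Krt6b (-0.97, adjusted p = 0.0402), with 2 pRb-deficient arrays at or below 32. Krt80 rose from 145.4, 157.5 and 131.3 to 529.1, 678.8 and 698.1 (2.13, adjusted p = 8.83e-05). Krt19 (at least 0.72, adjusted p = 0.0122) was below the floor on all pRb-expressing arrays and stayed at or below 64.3. Krt10 rose by 0.70 (adjusted p = 0.0129). Of 8 other intermediate filament and linker genes 3 were higher, Nes, Eppk1 and Plec (2.01, 1.39 and 0.42), and Vim, vimentin of mesenchymal cells, lay between 20460.5 and 25954.1 on all arrays. Of 16 epithelial regulators and surface genes 1 was higher and 2 were lower. Klf5, a transcription factor of proliferating epithelia, rose (4.31, adjusted p = 4.75e-06), whereas Trp63, the master regulator of stratified epithelium (-1.88, adjusted p = 0.0011), and Elf5 (-0.91, adjusted p = 0.0117) fell. Esrp1, the epithelial splicing regulator, was at or below 3.6 on every array.

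Markers of cell types that a calvarial culture could hold were counted by the same rule. Of all genes tested, 18.5% were higher and 23.4% lower. The sums given run over all measured genes of a list, also those not tested, and are weighted to its brightest probe sets. Of 7 mesothelial markers tested 2 were higher, Msln (log2 fold change 5.56) and Bnc1 (5.28), and 1 was lower, Upk1b. The summed signal of the 8 measured was 489 to 523 in pRb-expressing and 2877 to 3541 in pRb-deficient cultures. Msln (mean 19.5 against 1551) and Bnc1 (17.8 against 1271) made up most of that difference. Wt1 was at or below 38.6 and Gpm6a at or below 17.6 on all arrays. Of 6 epidermal markers 1 was higher, Krt10, and 1 lower, Trp63 (sum 1133 to 1325 against 827 to 934). Krt1 was at or below 29.1, and Lor lay between 168.8 and 219.5. Of 4 simple epithelium markers 1 was higher, Krt19, and 1 lower, Cdx2 (664 to 761 against 565 to 684). Muc1 was at or below 12.6, while Grhl2 (214.7 to 342.3) and Elf3 (237.7 to 321.2) were above the floor throughout and did not pass. Of 8 endothelial markers 2 were higher, Ets1 and Egfl7, and 1 lower, Cd34 (3933 to 4265 against 3111 to 3713). Ets1 averaged 694 against 1833 in pRb-deficient cultures, and Cd34 2784 against 844. Kdr lay between 219.1 and 328.6, and Tie1 and Vwf were at or below 5.9. Of 6 hematopoietic markers 2 were higher (968 to 1021 against 1663 to 1912), led by Cd14. Itgam was at or below 39.7, and Csf1r lay between 381.4 and 478.7. Of 7 chondrocyte markers 1 was higher and 3 were lower (3246 to 4076 against 1810 to 2752), and of 3 Schwann cell and neural crest markers 2 were lower (1844 to 2111 against 228 to 295). S100b, at a mean of 1613 against 26 in pRb-deficient cultures, made up most of the last fall. The part of any of these cells in the junction genes was not tested.

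Neighboring genes on the chromosome were compared because the median difference between the groups varied from chromosome to chromosome. Among genes averaging 200 or more over the 6 arrays, the median log2 fold change was -0.58 on chromosome 6, -0.52 on 11, -0.50 on 1 and -0.43 on 16, and 0.35 on 15 and 0.33 on 13. Chromosome 16 holds 7 of the 39 genes. Of these, 3 were higher (Cldn1, Igsf5 and Pkp2, beside 18.5% of all genes tested), and Cldn16 was lower (beside 23.4%). Perp stood at 5.92 where its 10 nearest such genes lay between -1.48 and 0.33. F11r, at 3.52, and Jup, at 1.77, also lay above all 10 of their neighbors (-1.56 to 0.57 and -2.75 to 0.70). So did Pkp1 (neighbors up to 1.07), Pkp2 (up to -0.27) and Pard6b (up to 0.38), and Igsf5 lay above all 7 of its own (up to 0.56). Dsp, Cldn1, Cldn12 and Cgnl1 lay within the range of their neighbors, as did the 4 lower genes. Members entered this comparison because they had passed, and neighbors did not, so a place above the neighbors is partly built in. Some members, such as Pkp1 and Pard6b, also averaged below the 200 asked of neighbors. Tjp1, at -0.44, lay among neighbors with a median of -0.93, of which 7 of 10 were lower. With each chromosome's median removed, 12 members were higher and 4 lower. Tjp1 (-0.11, adjusted p = 0.322) and Cldn16 (-0.47, adjusted p = 0.202) then did not pass, while Jam2 (0.69, adjusted p = 0.0245) passed as higher and Krt7 (-0.82, adjusted p = 0.0149) and Krt18 (-0.49, adjusted p = 0.0333) as lower.

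**Figure D4:**
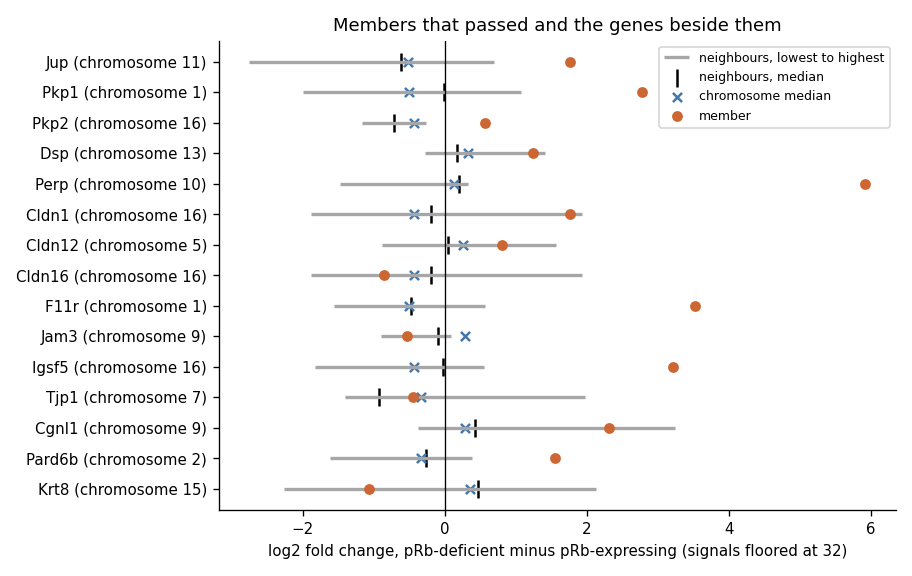
Log2 fold change (pRb-deficient minus pRb-expressing, signals floored at 32) of the 15 members that passed (orange), with the range (grey bar) and median (black tick) of up to 5 genes on each side that averaged 200 or more and the median of the chromosome (blue cross). Perp, F11r, Igsf5, Pkp1, Jup, Pard6b and Pkp2 lie to the right of all their neighbors, and Tjp1 lies among neighbors that are mostly lower.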

How the data were processed

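RNA from 6 MC3T3 osteoblast cultures was measured on 1 array each. The authors deposited MAS5 signals, which are linear intensities that they scaled on each array to a trimmed mean of 500, with no detection calls; tools listed in the submitters' processing notes are MAS5 and Affymetrix Expression Console 1.1. Scaling every array to the same mean hides any change in total RNA. Median signals were 108.0 to 119.9, and 24.4% to 26.6% of probe sets were at or below 32 on each array. The number of arrays limits the precision.

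Of 45101 probe sets, 64 controls and those at or below 32 on all arrays were left out. After flooring at 32, log2 signals were modelled on group alone with limma 3.58.1 in R 4.3.3, by lmFit and by eBayes with its intensity trend switched on. Two-sided p-values were adjusted over all probe sets tested (Benjamini-Hochberg), with a threshold of 0.05. Calls are counted over 1 probe set per gene, the brightest of those annotated with that symbol alone; a probe set of the platform annotation with several symbols (932) or none (9160) was not named. Folds are on geometric means of floored signals and understate changes near the floor; where arrays of the dimmer group were at or below 32, they are lower bounds ("at least"). The fit was tested on simulated data.

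All members were named, those that passed and did not overlap with every array's value. Of each list of related genes, up to 3 with the lowest adjusted p were named, and Krt6b, Vim and Esrp1 besides. Cell type markers are given mainly by counts and sums. Members and lists were chosen with earlier results of these data known. Some genes of the lists are not analysed here. Neighbors were taken from RefSeq gene order on the reference assembly, promoter windows from RefSeq on GRCm38.p6. Alternatives covered the floor, filter, normalization, variance model, array weights, each array left out, replicate block, test, probe set choice and chromosome medians. Leaving out probe sets of the _x_at class was added after seeing the data.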

Additional observations from a re-analysis of the deposited data

How the results depend on the processing

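All 15 called members kept their direction in each of 21 alternatives that tested them, and 9 stayed past the threshold in each other than the exact rank test and the 2-fold minimum. Direction could not change in the rank test, the 2-fold minimum, the 2 filter settings, the fit without intensity trend or the replicate block. Nor could it with adjustment over 1 probe set per gene or without _x_at probe sets. All of these left the log2 fold change of the called members as it was. Dsp and Cldn16 could not be tested with a floor of 100 or a minimum mean of 100, nor Pard6b with the latter. By the exact two-sided rank test, which with 3 against 3 cannot go below p = 0.10, 0 members were higher and 0 lower. Against a minimum change of 2-fold, 5 were higher and 0 lower. The number lower was 2 with no filter, 9 with array quality weights and 2 with the mean of all probe sets of a gene, against 4; leaving out 1 array gave 2 to 3, while the number higher stayed at 11. The array quality weights added Cldn4, Crb3, Krt7, Krt14 and Epcam; the cause was not tested. Krt8 was lost with no filter (adjusted p = 0.0937), quantile normalization (0.0561) and the mean of all probe sets (0.0787), and Cldn16 with no filter (0.0873). Evpl passed as lower in 4 alternatives, with a floor of 100 (-0.33), a pseudocount of 32 (-0.65), a minimum mean of 100 (-0.90) and without pRb-deficient replicate 2 (-1.20).

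Only members that did not pass changed sign. Cldn2 was at 0.01 with a floor of 100, 0.05 with quantile normalization and 0.04 with median centring, Krt18 at 0.03 with both normalizations, and Dsc2 at -0.20 with a pseudocount of 32. With 1 array left out, the log2 fold change of Cldn2 ran from -0.20 to 0.20, of Cldn15 from -0.17 to 0.27, of Cldn4 from -0.54 to 0.02, of Dsc3 from -0.10 to 0.30, of Krt18 from -0.10 to 0.01 and of Pard3 from -0.01 to 0.15. With chromosome medians removed the values were -0.20 for Dsc2, -0.14 for Dsc3, -0.24 for Cldn15, -0.01 for Pard3, 0.13 for Ppl, 0.30 for Cldn7, 0.03 for Crb3 and 0.17 for Krt14.

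The replicate numbers did not pair the samples: deviations of same-numbered arrays correlated at 0.0229, -0.0338 and 0.057. With the replicate block 11 members were higher and 4 lower, and no call changed. Genes near the floor of 32, such as Dsc2, Cldn7 and Cldn11, have little room to show a fall.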
